A study of Homo sapiens with 4 samples.

Results

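The data describe 10 genes that are textbook targets of the transcription factor NF-kB, measured in T-47D cells with and without an artificial microRNA. They are the cytokine genes TNF, LTB, IL1A, IL1B, IL6 and CSF1, the adhesion molecule gene ICAM1, the signalling genes TNFAIP2 and TRAF1, and SOD2, which encodes the mitochondrial superoxide dismutase. They were found by their exact symbol in the platform's table of probesets and genes, which gave 92 probesets for the 10 genes, out of 232479 probesets and 16543 named genes in all. A probeset is a small group of probes on the array that reads about 1 exon or part of one. T-47D is an established luminal breast cancer line. Both groups were T-47D cells grown in DMEM with serum and transfected with the TurboFect reagent. The mimic group, 2 arrays, received a mimic of the artificial microRNA p-27-5p at 200 nM, and the control group, 2 arrays, received a pre-miR negative control whose dose the labels do not give. The time between transfection and RNA extraction and the mimic's sequence are not given in the sources used here. The labels do not say that replicates were separate cultures. The p-values rest on the spread between 2 arrays of each kind, and this spread may be technical.

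NF-kB is a family of dimeric transcription factors that wait in the cytoplasm, bound by inhibitors. Cytokine receptors, Toll-like receptors and sensors of viral RNA switch on a kinase complex that marks the inhibitor for destruction, and the freed dimers enter the nucleus and bind short sites in their target promoters. Among the targets are cytokines that can signal back through the same pathway, adhesion molecules that catch leukocytes, and genes that protect the responding cell.

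The promoters of these genes differ in the letters that NF-kB is known to bind. A stretch is shown for each gene with such letters before a start, whatever its change. Of the genes shown, ICAM1 and TNFAIP2 rose, LTB did not pass the test and IL6 could not be tested. RefSeq promoter windows (GRCh38.p14, 250 bases before to 50 after a start) were held for 9 of the 10 genes, in 16 entries. The gene without an entry was CSF1, whose promoter was not searched. The NF-kB core GGNNNTTCC, searched on both strands, lay in 7 of the 16 entries, against 20.1% of all 35116 promoter entries. The 7 entries stand for 5 of the 9 genes, and the 2 of LTB start at neighbouring bases and share the same site, so entries are not separate promoters. It lay before the start in 4 genes, ICAM1, TNFAIP2, LTB and IL6, and after the start in 2 entries of TRAF1. No entry of TNF, SOD2, IL1A or IL1B held it, which says only that these letters are not in those windows. The 100 bases around each match before the start are given 5′ to 3′ on the gene's own strand, with the core in capitals. Those of ICAM1 are chr19:10270888-10270987 on the plus strand, of TNFAIP2 chr14:103123318-103123417 on the plus strand, of LTB chr6:31582458-31582557 on the minus strand and of IL6 chr7:22727082-22727181 on the plus strand.
ICAM1: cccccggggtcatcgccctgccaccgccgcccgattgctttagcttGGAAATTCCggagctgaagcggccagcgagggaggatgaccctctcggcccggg
TNFAIP2: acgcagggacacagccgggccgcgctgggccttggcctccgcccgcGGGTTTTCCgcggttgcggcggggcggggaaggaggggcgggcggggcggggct
LTB: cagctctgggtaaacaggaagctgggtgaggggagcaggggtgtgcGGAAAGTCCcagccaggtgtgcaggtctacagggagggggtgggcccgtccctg
IL6: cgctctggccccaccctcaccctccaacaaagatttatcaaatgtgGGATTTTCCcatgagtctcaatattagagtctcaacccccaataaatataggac
The match of ICAM1, GGAAATTCC, lay at positions -186 to -178 from the start as RefSeq gives it, that of TNFAIP2, GGGTTTTCC, at -97 to -89 and that of IL6, GGATTTTCC, at -72 to -64. In the LTB entry shown, GGAAAGTCC, which matches on the opposite strand, lay at -86 to -78. The longer NF-kB consensus was found in LTB and IL6, over the core matches shown and in LTB also after the start, apart from the core, and in 11.3% of all entries. The core of the interferon-stimulated response element was found in 0 of the 16 entries and in 3.57% of all entries. The AP-1 motif TGANTCA was found in IL1A alone among the 9 genes and in 7.71% of all entries. A match is a run of letters and was not tested for binding.

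Values are log2 levels as deposited, and a gene's level is the mean of those of its probesets that averaged 4.08 or more, a floor set at the 25th percentile of all values. Over all probesets the correlation r was 0.985 for the mimic pair, 0.984 for the control pair and 0.966 to 0.973 between groups. The 10 luminal markers, among them ESR1, GATA3 and KRT8, had a median control level of 9.64 and 0 of them changed by limma's test, with 4 lower at an unadjusted p under 0.05 (PGR with -0.60 and ESR1 with -0.42 had the smallest p). Over all genes tested, the share beside this and the next marker counts, 2.31% changed. At that unadjusted p, 7.65% of them were higher and 12.8% lower. Of 10 leukocyte markers 7 could be tested and 0 changed by limma's test (1 had an unadjusted p under 0.05, CD14 with 0.46, followed by ITGAM with 0.20), and their mean level was 5.82 and 5.57 with the mimic, against 5.74 and 5.56 with the control. Of 8 fibroblast markers 0 changed by limma's test (2 had an unadjusted p under 0.05, FAP with 0.77 and LUM with 0.80), with mean levels of 5.30 and 5.24 with the mimic, against 5.00 and 4.85 with the control. Of 6 endothelial markers 0 changed by limma's test (1 had an unadjusted p under 0.05, CDH5 with 0.38, followed by PECAM1 with 0.26), with mean levels of 5.63 and 5.57 with the mimic, against 5.59 and 5.29 with the control. The part of fibroblast or endothelial RNA in the results was not tested. The macrophage marker CD68 lay below the filter. Of 14 genes of liver and neurons with probesets in the table, which serve as a rough guide to background, the median control level over all their probesets was 3.65, with a range from 3.21 to 6.50 (SYT1). In the filtered fit 13 genes of this list of 16 were tested and 0 changed by limma's test, also at an unadjusted p under 0.05, where SYT1 with -0.42 and MBP with 0.34 had the smallest p. Probesets differ in how strongly they bind, so levels of different genes are no measure of relative abundance. Over all their probesets too, ICAM1, CSF1 and TNF had control levels of 4.63, 5.16 and 4.01. These lay within the range of the 14 genes and below the second highest of them, which had 5.17. TNFAIP2, with 6.28, lay above the second highest and below SYT1 alone, and SOD2, with 7.26, lay above all 14. A fold change against a level near background can understate the change.

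Of the 10 genes, 9 had at least 1 probeset above the filter, and 5 of these 9 rose in the mimic arrays: ICAM1, TNFAIP2, CSF1, TNF and SOD2. The other 4, LTB, IL1A, IL1B and TRAF1, did not pass, none fell, and IL6 could not be tested because all of its 9 probesets lay below the filter. Over all 15719 genes tested, 2.31% were called, 1.52% higher and 0.789% lower. At an unadjusted p under 0.05 the same count, 5 higher and 0 lower, was found, beside 7.65% higher and 12.8% lower over all genes. Both mimic arrays lay above both control arrays in 6 of the 9, the 5 and LTB, and below them in 1, TRAF1, where 20.5% and 29.5% of all genes did so. The median change of the 9 genes was 1.14, against 0.00 over all genes tested. The genes were chosen with earlier results of these data known, so these counts and this median are no independent support. The test was limma's moderated test, two-sided, with Benjamini-Hochberg adjustment over all genes and a threshold of 0.05. Without a filter, which lets all 10 genes in, the same number passed, 5. Of the 63 probesets of these genes above the filter, 7 had a control mean below it and so passed through the mimic arrays: 3 of ICAM1 and 1 each of CSF1, IL1A, IL1B and TNF. Changes without a filter are given beside the main ones for the 5 genes that rose.

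**Figure D1:**
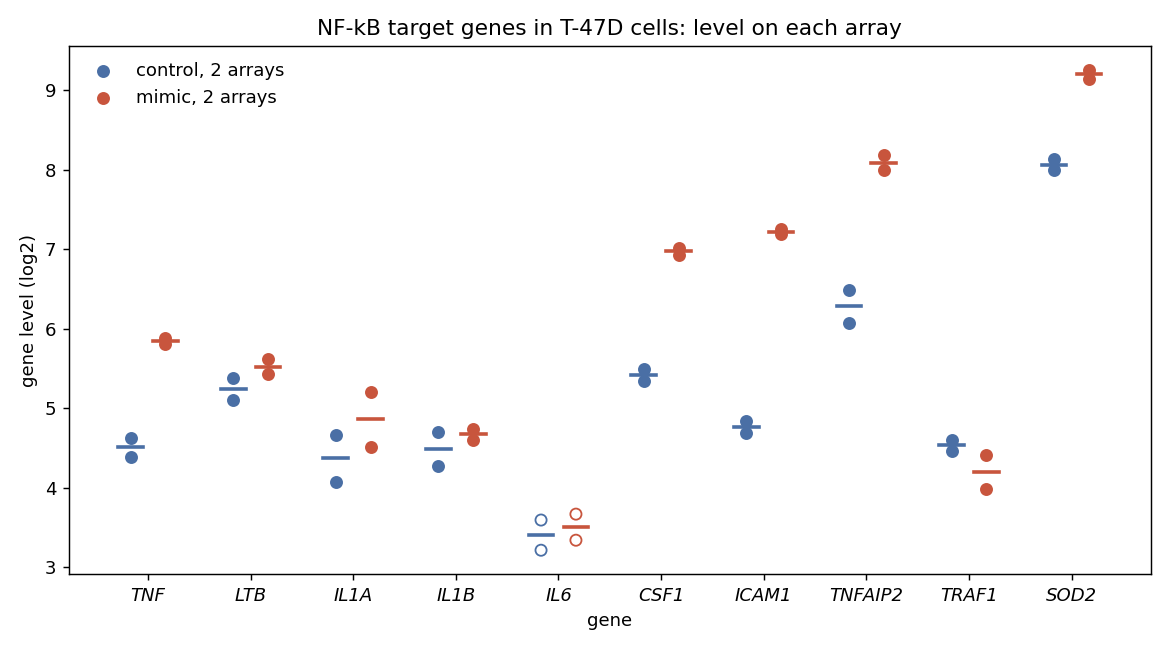
Level of each gene (log2, vertical axis) on the 2 control arrays (blue) and the 2 mimic arrays (red), with the group mean as a bar. IL6, drawn open, is the mean of all its 9 probesets, since none reached the filter; in ICAM1, TNFAIP2, CSF1, TNF and SOD2 both mimic arrays lie above both control arrays.

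Among the ligands, TNF, the founding cytokine of its family and a strong activator of NF-kB, rose. Its level was 5.88 and 5.81 with the mimic, against 4.62 and 4.39 with the control. Both mimic arrays lay above both control arrays, and the difference of 1.34 (SE 0.138, 95% confidence interval 0.99 to 1.69) was 2.53-fold on the linear scale (limma adjusted p = 0.0138). Without a filter the difference was 1.05 (adjusted p = 0.000777), with 2 probesets of mean level 3.21 and 3.25 added to the other 4. The call was lost without mimic replicate 1 (1.31) and with the brightest probeset alone (0.64, adjusted p = 0.232, the highest of the alternatives).

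LTB encodes lymphotoxin beta, which anchors lymphotoxin at the cell surface and signals through the LTBR receptor. It had 5.62 and 5.43 with the mimic, against 5.38 and 5.11 with the control. The arrays did not overlap, but the difference of 0.28 (95% confidence interval -0.11 to 0.67) did not pass (adjusted p = 0.386). It ran from 0.14 without control replicate 2 and 0.18 without mimic replicate 1 to 0.42 without control replicate 1. Its 4 probesets ranged from -0.19 to 0.65, the largest value standing on the brightest of them.

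IL1A and IL1B encode the interleukin-1 cytokines, which act through a shared receptor and drive fever and acute inflammation. IL1A had 4.52 and 5.21 with the mimic, against 4.67 and 4.08 with the control, so that the groups overlapped. The difference was 0.49, with a 95% confidence interval from -0.27 to 1.26 (adjusted p = 0.429), and it ran from 0.15 without mimic replicate 2 and 0.20 without control replicate 2 to 0.79 without control replicate 1 and 0.84 without mimic replicate 1. IL1B had 4.75 and 4.61 against 4.70 and 4.27, which also overlapped. The difference was 0.19, with an interval from -0.27 to 0.65 (adjusted p = 0.611). Both rest on few probesets near the filter, 2 of 5 for IL1A and 3 of 7 for IL1B, and the intervals reach 1.26 and 0.65. Over all probesets without a filter the arrays of both genes were apart, as were 20.2% of genes in this direction. The differences were then 0.34 for IL1A (adjusted p = 0.174, in a range of 0.0563 to 0.861 over the alternatives) and 0.15 for IL1B (adjusted p = 0.563, in a range of 0.183 to 0.969).

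IL6, a cytokine that acts through the shared receptor chain IL6ST, had low readings on every probeset. Over its 9 probesets it had 3.67 and 3.34 with the mimic, against 3.60 and 3.22 with the control, with a difference of 0.10 in the fit without a filter (95% confidence interval -0.27 to 0.47, adjusted p = 0.79). No probeset had a mean level above 4.04. The 9 probesets fall into 2 runs of numbers. The 5 of the first run lie among probesets of genes on the plus strand of chromosome 7, the strand of IL6, and the 4 of the second run among genes on the minus strand, as judged from the 20 genes nearest in probeset number, 10 on either side. The 5 probesets on the strand of IL6 had a mean difference of -0.04 and the other 4 of 0.27. The probesets of the other 8 genes with a RefSeq promoter entry all lay among genes of their own strand. CSF1 had no such entry, so its strand was not checked. The mean control level of IL6, 3.41, lay within the range of the liver and neuron genes.

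CSF1 encodes macrophage colony-stimulating factor, which supports monocytes and macrophages through the CSF1R receptor. Its level was 7.02 and 6.93 with the mimic, against 5.50 and 5.35 with the control. The groups were well apart, and the difference of 1.55 (SE 0.128, 95% confidence interval 1.23 to 1.88) was 2.93-fold on the linear scale (limma adjusted p = 0.00647). It was 1.46 without a filter (adjusted p = 8.1e-05) and 2.28 with the median of probesets (adjusted p = 0.00376). With the brightest probeset it was 0.93 and missed the threshold (adjusted p = 0.129, the highest of the alternatives).

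ICAM1, an adhesion molecule of the immunoglobulin family that binds leukocyte integrins, had the largest change of the 9 and ranked at place 75 of the 15719 genes by size of increase. Its level was 7.19 and 7.25 with the mimic, against 4.69 and 4.84 with the control. The gap between groups was many times the spread within them, with a difference of 2.46 (SE 0.127, 95% confidence interval 2.14 to 2.78), 5.49-fold on the linear scale (limma adjusted p = 0.00105). Without a filter it was 2.23 (adjusted p = 2.6e-06) and with the median of probesets 3.21 (adjusted p = 0.000751). The brightest probeset alone gave 0.49 (adjusted p = 0.363, the highest of the alternatives).

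TNFAIP2, a TNF-induced protein linked to membrane protrusions, had 7.996 and 8.19 with the mimic, against 6.08 and 6.49 with the control. Both mimic arrays were higher, although the control arrays of this gene lay further apart than those of ICAM1 or CSF1. The difference of 1.81 (SE 0.182, 95% confidence interval 1.35 to 2.27) was 3.50-fold on the linear scale (limma adjusted p = 0.0129), and all its probesets passed the filter. It was the 1 gene of the 5 that passed under all of its 12 alternatives, the brightest probeset among them (1.77, adjusted p = 0.0303, the highest).

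TRAF1, an adaptor of TNF receptors that pairs with TRAF2, was read by 1 probeset above the filter out of 8. That probeset had 4.42 and 3.99 with the mimic, against 4.46 and 4.60 with the control. The difference was -0.33 (95% confidence interval -0.79 to 0.13, adjusted p = 0.377), and over all 8 probesets it was -0.04 (adjusted p = 0.923, in a range of 0.233 to 0.923 over the alternatives). The difference ran from -0.55 without mimic replicate 1 to -0.12 without mimic replicate 2.

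SOD2, which turns superoxide into hydrogen peroxide in mitochondria, had 9.26 and 9.15 with the mimic, against 8.13 and 7.999 with the control. The difference of 1.14 (SE 0.128, 95% confidence interval 0.81 to 1.46) was 2.20-fold on the linear scale (limma adjusted p = 0.0185). SOD2 had the smallest change of the 5 that rose. It missed the threshold without mimic replicate 1 (1.08, adjusted p = 0.107), without mimic replicate 2 (1.19, adjusted p = 0.0698) and with the brightest probeset (1.07, adjusted p = 0.115), in a range of 0.000482 to 0.115. The size of the change lay between 0.99, without a filter (adjusted p = 0.00108), and 1.20 over the alternatives.

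**Figure D2:**
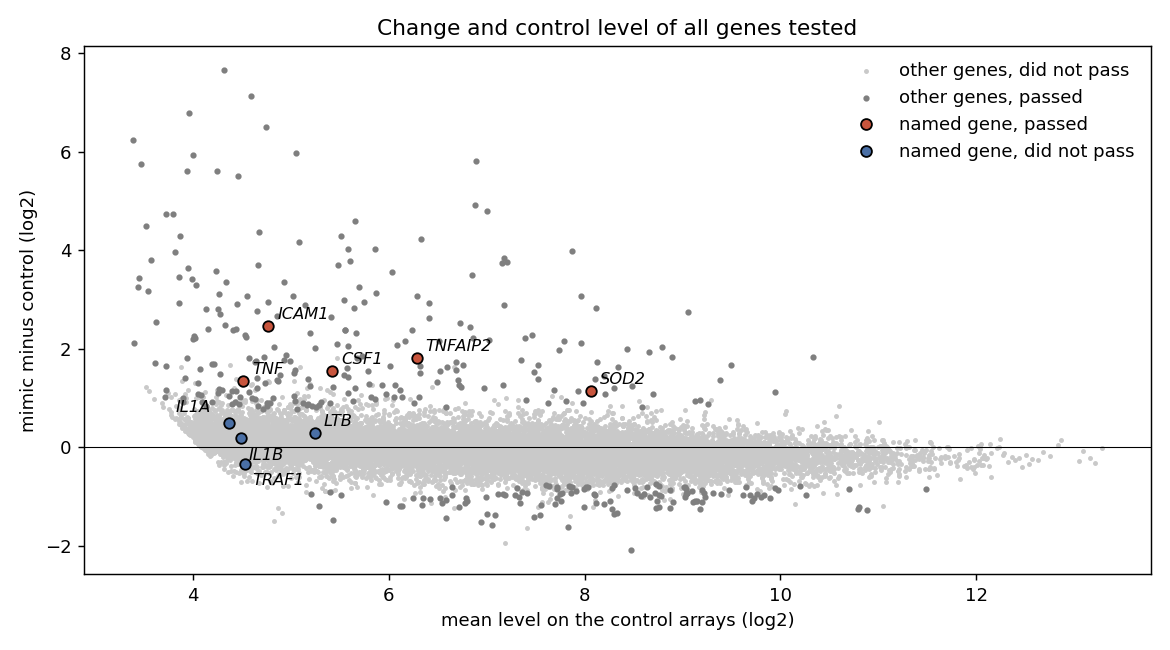
Change (mimic minus control, log2, vertical axis) against mean control level (log2, horizontal axis) for all 15719 genes tested. Grey points are the other genes, darker where they passed the test; red points are the 5 named genes that rose and blue points the 4 that did not pass, which all have control levels between 4.37 and 5.25.

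The single probesets show how evenly each gene moved. In the test of single probesets, 22 of the 63 above the filter were called higher and 0 lower, where 0.823% of all 163774 probesets tested were called higher and 0.0946% lower. Of all 92 probesets, 66 had both mimic arrays above both control arrays and 3 had both below, against 20.6% and 23.6% of all probesets of 1 gene. The called probesets belonged to TNFAIP2 (10 of 20), ICAM1 (6 of 9 tested) and CSF1 (6 of 15 tested). Among those of ICAM1, 3820450 and 3820451 had control means of 3.90 and 3.76. These lay below the filter, so both probesets were tested only through their high mimic values. None of SOD2 or TNF passed alone. Since the genes were chosen with earlier results of these data known, these probeset counts are no independent support either.

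**Figure D3:**
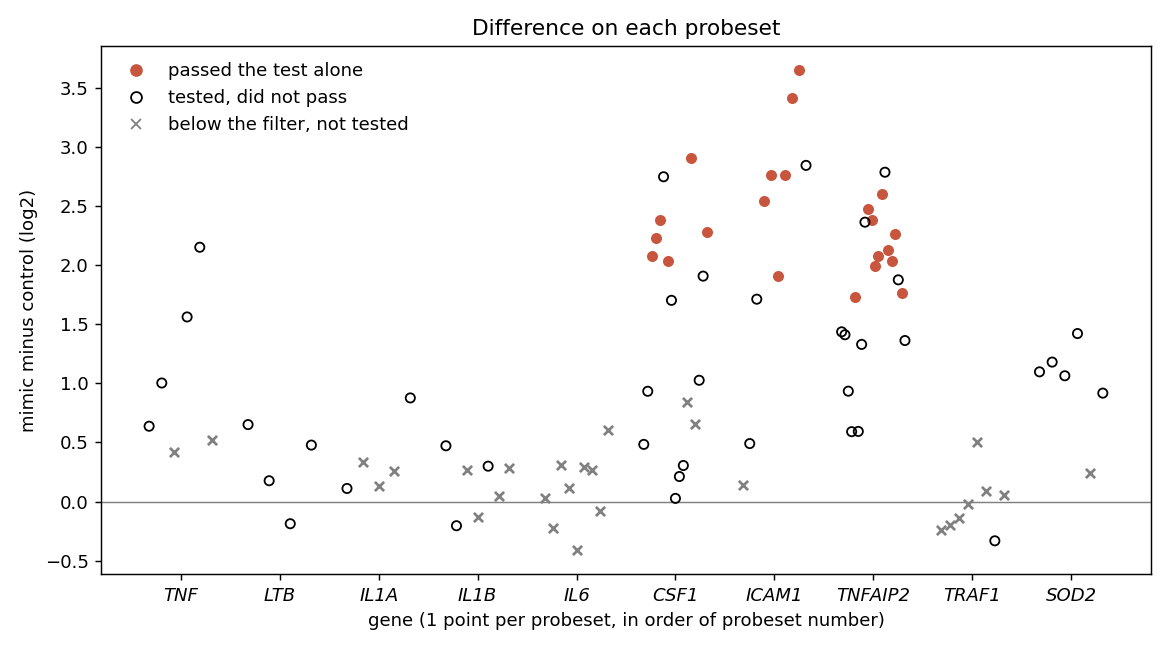
Difference between the mimic and control means (log2, vertical axis) on each of the 92 probesets, grouped by gene and ordered by probeset number within a gene. Filled red points passed the test alone, open points did not, and crosses lay below the filter; the filled points belong to ICAM1, CSF1 and TNFAIP2.

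ICAM1 was higher on all 10 probesets, but unevenly. The largest difference, 3.66, stood on probeset 3820454, which had 8.65 and 8.58 with the mimic, against 4.57 and 5.35 with the control. Its brightest probeset, 3820445, had 7.85 and 7.82 against 7.55 and 7.14, a difference of 0.49. That probeset was high in the control arrays too, where the other 9 lay between 3.44 and 5.29 in the mean. The dimmest, 3820444, had 0.14 and lay below the filter. The 8 remaining probesets had differences between 1.71 and 3.66.

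CSF1 was also uneven along its numbered probesets. Its largest difference, 2.91, stood on probeset 2351100, which had 7.52 and 7.80 with the mimic, against 4.92 and 4.58 with the control. A run of 3 probesets with successive numbers, 2351095 to 2351097, had differences of only 0.03, 0.21 and 0.31, with mimic means between 4.44 and 5.12. The probesets numbered just before them, 2351085 to 2351094, had 1.70 to 2.75. The first 2 of the gene, 2351080 and 2351084, had 0.48 and 0.93 and the highest control means of the gene, 7.19 and 7.60. Where in the transcript these probesets lie is not given in the sources used here, and unequal change between them was not tested.

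TNFAIP2 was higher on all 20 probesets, with differences from 0.59 to 2.79, and on 19 of them the groups did not overlap. The exception, 3553537, had control values of 2.94 and 5.97. The 2 smallest differences, both 0.59, stood on probesets 3553539 and 3553544. In SOD2 the 5 probesets above the filter had differences between 0.92 and 1.42, and the 3 brightest, with control means from 9.32 to 9.58, had 1.07 to 1.18. All 6 probesets of TNF had both mimic arrays above both control arrays, with differences from 0.42 to 2.15. The largest, on 2902423, had 5.87 and 5.94 against 4.26 and 3.24.

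**Figure D4:**
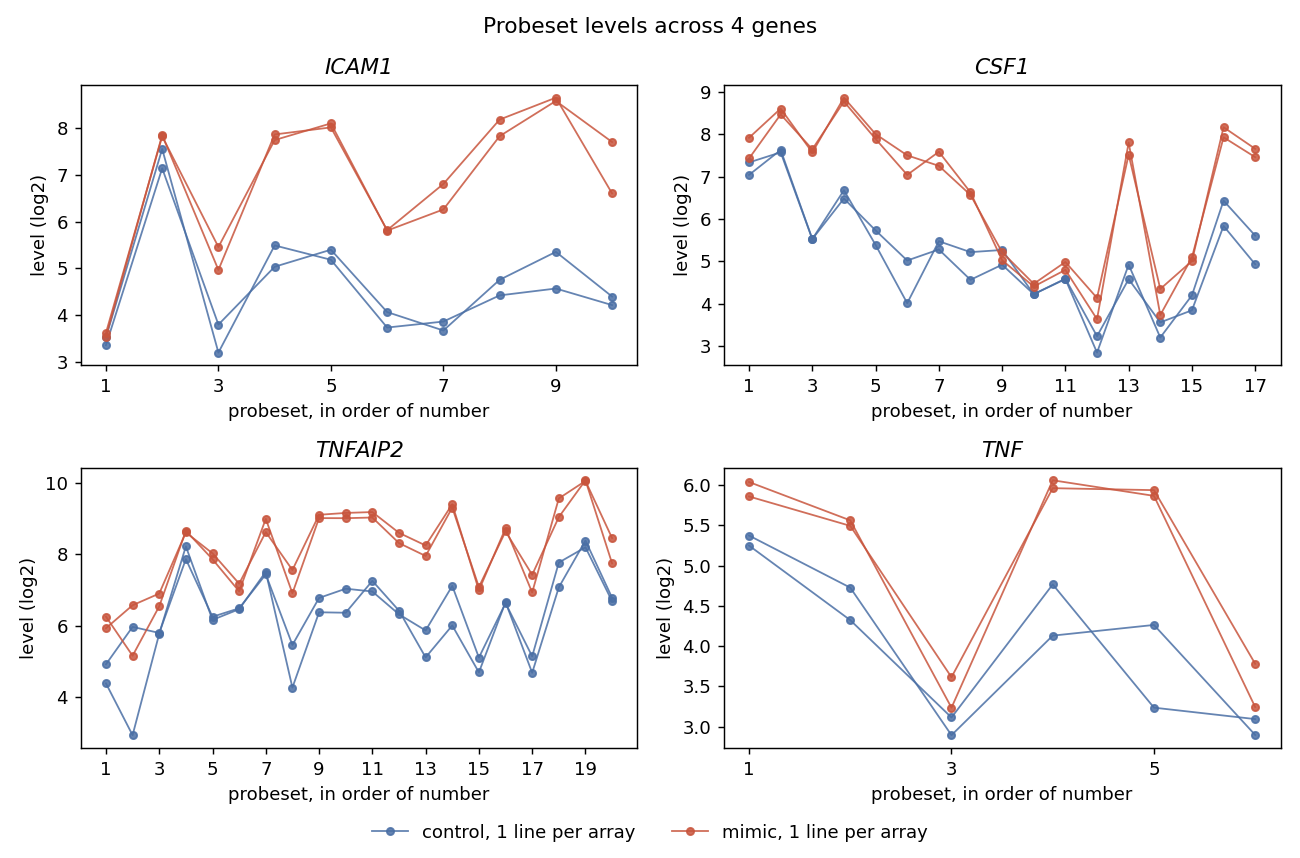
Levels (log2, vertical axis) of the probesets of ICAM1, CSF1, TNFAIP2 and TNF in order of probeset number (horizontal axis), 1 line per array, with mimic arrays in red and control arrays in blue. The lines of the 2 groups overlap at the second probeset of TNFAIP2. They meet or nearly meet at the first and second of ICAM1 and at the first and ninth to eleventh of CSF1. In TNF they come close at the third and sixth, and at most other probesets of these genes they are apart.

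A further list held the receptors of these cytokines, relay proteins of the NF-kB pathway, and the proteases ADAM17 and CASP1, which process TNF and interleukin-1 beta. Of its 21 genes 20 were tested, 2 rose, none fell and the median change was 0.17 (5 higher and 1 lower at an unadjusted p under 0.05). Among all genes tested 1.52% rose and 0.789% fell, and 7.65% were higher and 12.8% lower at that unadjusted p. CASP1, the protease that matures interleukin-1 beta, rose by 4.49 (SE 0.141), from 3.48 and 3.55 on the control arrays to 7.88 and 8.13 on the mimic arrays (limma adjusted p = 0.000237). Its control mean of 3.52 lay below the filter, and without a filter the change was 3.27 (adjusted p = 2.8e-07, in a range of 1.6e-09 to 0.00372 over the alternatives). MYD88, the adaptor of the interleukin-1 and Toll-like receptors, rose by 1.15 (adjusted p = 0.0196), a call that was lost without mimic replicate 1 (adjusted p = 0.103) and without mimic replicate 2 (0.0777), in a range of 0.000512 to 0.128, the highest with the brightest probeset. The receptor genes TNFRSF1A, TNFRSF1B, LTBR, IL1R1, IL1RAP, IL6R, IL6ST and CSF1R had 0.22, 0.39, 0.03, 0.19, 0.22, 0.20, 0.32 and -0.10 and did not pass. The kinase subunits CHUK, IKBKB and IKBKG had -0.04, -0.03 and -0.36 and did not pass either, nor did ADAM17 with 0.60.

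Of 20 relatives of the 10 genes 19 were tested, and 1 changed (3 higher and 2 lower at an unadjusted p under 0.05). Over all genes tested 2.31% changed, and 7.65% were higher and 12.8% lower at that unadjusted p. IL18, a cytokine of the interleukin-1 family, fell by 1.13 on the log2 scale, from 8.10 and 8.13 on the control arrays to 6.97 and 6.99 on the mimic arrays (limma adjusted p = 0.0141). Its adjusted p was 0.0889 and 0.0775 without mimic replicate 1 and 2, in a range of 0.000354 to 0.316, the highest with the brightest probeset. The other dismutases SOD1 and SOD3 had -0.03 each, and ICAM2, ICAM3, ICAM4 and ICAM5 had -0.14, -0.57, 0.21 and 0.11. LTA, the partner of LTB, had -0.01. The cytokine LIF had 1.11 (adjusted p = 0.0751), and the adaptors TRAF3 and TRAF5 had 0.59 and 0.57. None of these passed. Whether their changes differ from those of SOD2, ICAM1, TRAF1 and LTB was not tested. The list median was -0.01.

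Of 26 other textbook NF-kB targets 25 were tested, 8 rose, none fell and the median change was 0.57 (15 higher and 0 lower at an unadjusted p under 0.05). Among all genes tested 1.52% rose and 0.789% fell, and 7.65% were higher and 12.8% lower at that unadjusted p. The chemokines CCL5, CXCL10 and CCL20 rose by 4.16, 2.55 and 1.72. The control means of CXCL10 and CCL20, 3.62 and 3.61, lay below the filter, and without a filter their changes were 2.03 and 1.38. The brakes TNFAIP3, NFKBIA and NFKBIZ rose by 2.80, 1.36 and 1.42, NFKBIZ being also a co-regulator of transcription. BIRC3, which restrains cell death, rose by 2.65, and the NF-kB subunit RELB by 1.75. With limma the adjusted p of these 8 lay between 0.00101 and 0.0196. CCL20, CXCL10, NFKBIZ and TNFAIP3 missed the threshold with the brightest probeset (adjusted p = 0.166, 0.162, 0.158 and 0.0664), the highest of their alternatives, of which the lowest had 0.000117, 1.3e-06, 0.000129 and 1.4e-07. The chemokines CXCL1, CXCL2, CXCL8 and CCL2 had 0.19, 0.01, 0.47 and 1.34 (adjusted p = 0.0514 for CCL2), the NF-kB subunit genes NFKB1 and NFKB2 had 0.69 each, and the endothelial adhesion molecules VCAM1 and SELE had 0.63 and 0.11, none of which passed. The list holds genes already known to be high in these data and its count is no independent support.

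**Figure D5:**
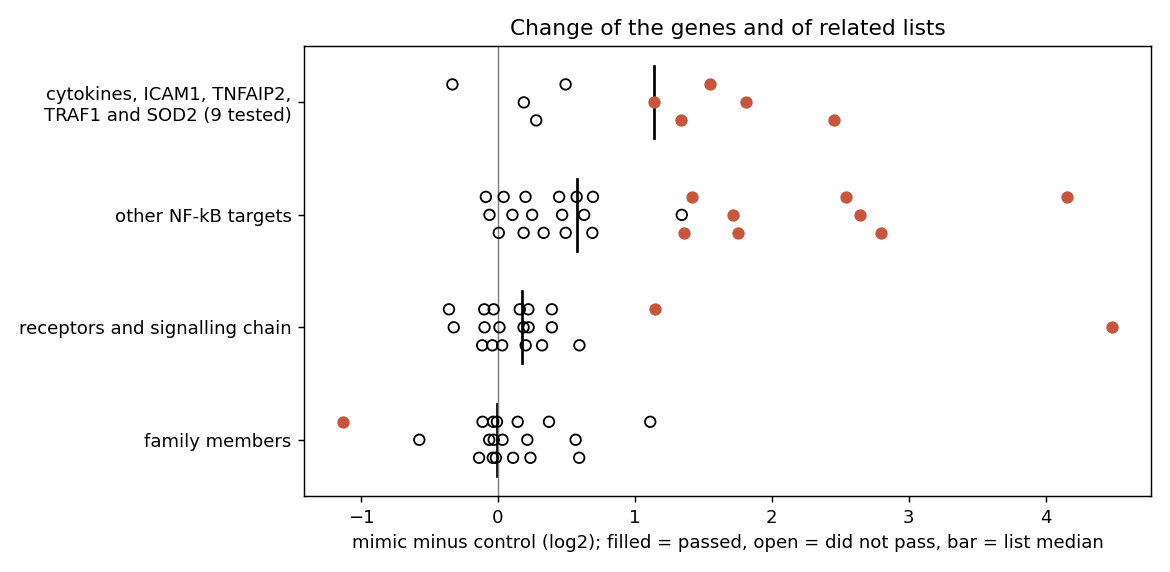
Change (mimic minus control, log2, horizontal axis) of each gene tested in 4 lists, with filled points for genes that passed, open points for those that did not, and a bar at the list median. The medians are 1.14 for the 9 genes, 0.57 for the other NF-kB targets, 0.17 for receptors and signalling chain and -0.01 for family members. All 4 lists were chosen with earlier results of these data known.

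The genes whose levels over the 4 arrays, centred on each gene's mean, were nearest to those of ICAM1 were ISG20, TNFSF10 and S100P, at distances of 0.0876, 0.0957 and 0.0959 log2 units. ISG20 had 6.78 and 6.80 with the mimic, against 4.35 and 4.47 with the control. TNFSF10, the death ligand TRAIL, differed by 2.45 and S100P by 2.38. With 4 arrays this describes only a similar size and spread of change.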

How the data were processed

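The values are on a log2 scale as deposited, at the level of exon probesets. Partek, RMA and hg18 are named in the submitters' processing notes, without versions. The interquartile range of the log2 values was 4.18 and 4.32 with the mimic, against 4.25 and 4.52 with the control, so the deposited values do not share 1 distribution. The number of arrays limits the precision. Of the probesets, 216780 carried 1 symbol, 2335 several and 13364 none in the platform annotation. Symbols outside the 10 genes were updated through RefSeq synonyms (25769 probesets). The reported fits to genes and to single probesets used lmFit and eBayes of limma 3.58.1 (R 4.3.3), on 2 residual degrees of freedom. After moderation the reported gene fit had 5.29 and the gene fit without a filter 9.55. Each fit has its own moderation, so a smaller p without a filter is not by itself stronger evidence. SE is from the moderated fit. The fits were tested on simulated data. Plots came from Python 3.11.15 with matplotlib 3.10.9. The 10 genes and all lists were chosen with earlier results of these data known. From each list the text names the genes that passed or, where none did, the 2 with the smallest p, and beside ICAM1 the 3 genes nearest in profile. Other list genes, and probesets other than those called or with the highest or lowest change, were chosen after their values were seen. The alternatives tried changed the scaling (quantiles or medians), the filter (none, or the table's median), the gene summary (median or brightest probeset) and the model (intensity trend, replicate block, each array left out). With 1 array left out, a group has 1 array and the spread comes from the other group alone. Such fits gave the lowest adjusted p of several genes, CASP1, CCL20 and CXCL10 among them, and these are no stronger evidence. The result of 1 gene in the marker lists is not reported here.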

Additional observations from a re-analysis of the deposited data

How the results depend on the processing

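The 2 arrays per group and levels near background limit the precision. The changes of the 9 genes tested kept their direction under the alternatives in which they had a value, except IL1B, with -0.094 for IL1B under the median of probesets and -0.026 to 0.40 for IL1B without 1 array (below 0 without control replicate 2). With the brightest probeset, 1 of the 9 genes passed, at 0.49 for ICAM1, 0.93 for CSF1, 1.07 for SOD2 and 0.64 for TNF. Leaving out 1 array in turn, 3 to 5 of the 9 passed, with changes of 1.07 to 1.20 for SOD2 and 1.22 to 1.45 for TNF over the arrays left out. IL6 had a value without a filter only. Of the probesets of these genes, 12 passed with the replicate block, 35 with an intensity trend and 2 to 10 without 1 array. The count over all genes was 363 in the reported fit, 1433 without a filter (540 of them higher), 1594 with an intensity trend (527 higher), 122 with the brightest probeset (115 higher) and 172 to 1691 without 1 array. The family list had 4 calls without a filter, 3 with an intensity trend, 0 with the brightest probeset and 0 to 3 without 1 array. With the brightest probeset, 4 other NF-kB targets and 1 gene of the receptor list passed, and without 1 array 8 to 13 and 1 to 2. The cause of these shifts was not tested. For the probeset counts under these alternatives, no share over all probesets is given. They therefore do not show whether the probesets of these genes shifted more or less than others. Across genes, the difference between replicates 1 and 2 correlated between the groups with r = 0.435, but with 2 pairs the numbers are not taken to pair the arrays. With the replicate block 5 of the 9 genes passed, beside 498 of all 15719 genes tested.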
